A study of Mus musculus with 12 samples.

Results

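Ms4a4a, Ms4a4c, Ms4a6b, Ms4a6c, Ms4a6d and Ms4a7, 6 mouse genes of the MS4A family of membrane proteins, were followed in bone marrow-derived macrophages (BMDMs). They were chosen by gene symbol, and all 6 were found among the 55335 genes of the expression table. All 6 also passed the filter on low values, which left 12622 genes for testing. The experiment crossed genotype with stimulation, so that the response of these genes to inflammasome activation could be set side by side in macrophages with and without NLRP3, the sensor protein of an inflammasome. There were 4 groups of 3 RNA sequencing libraries, 12 in all: control and LPS+ATP cultures of wild-type cells, and the same pair of Nlrp3-/- cells. LPS is a bacterial cell wall component that primes macrophages, and extracellular ATP then activates the inflammasome. The labels give 4 h of LPS followed by 30 min of ATP, whereas the culture methods give 12 h of LPS followed by 2 h of 3 mM ATP. The culture methods describe BMDMs from C57BL/6 mice aged 8 weeks, grown from marrow for 7 days with macrophage colony-stimulating factor. Adherent cells of these cultures were taken as macrophages without a further sort, and the Nlrp3-/- mice carried the deletion in every cell.

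MS4A proteins cross the membrane several times and sit at the cell surface or in inner membranes, where they associate with receptors and alter how those receptors signal. The best known members are MS4A1, the B cell antigen CD20, and MS4A2, the beta chain of the high-affinity IgE receptor. Myeloid cells use a different set. MS4A4A is a surface protein of macrophages that associates with the beta-glucan receptor Dectin-1, MS4A6D has been described as a partner of the complement receptor VSIG4, MS4A6B associates with the T cell receptor GITR, and MS4A7 marks tissue macrophages. The human MS4A locus is also known for variants linked to soluble TREM2.

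The values were FPKM, fragment counts scaled to gene length and to the mapped fragments of the library, so that levels of different genes could be compared per length. Differences between groups were fitted for all 12622 genes with limma on log2(FPKM + 1). A gene was called a differentially expressed gene (DEG), and said to rise or fall, at a Benjamini-Hochberg adjusted p under 0.05 if its log2 fold change was also 1 or more, or -1 or less. Summed FPKM ranged from 283278 to 299393 over the libraries, and sequencing depth differed by at most 1.22-fold between them. Depth was judged from the most common ratio of low values between each library and the first wild-type control library. Nlrp3 lay between 9.24 and 33.6 FPKM in the 6 wild-type libraries and was listed at 0 in all 6 Nlrp3-/- libraries. The X inactivation transcript Xist was at 0.0416 FPKM or less in wild-type libraries but at 32.8 to 56.3 FPKM in Nlrp3-/- libraries, where Ddx3y, Eif2s3y, Kdm5d and Uty of the Y chromosome had only values of 0. Nnt, a gene truncated in the C57BL/6J substrain and looked at after its values were known, was at 4.09 to 10.3 FPKM in wild-type and at 0.670 to 1.47 FPKM in Nlrp3-/- libraries. Genotype, sex and substrain therefore cannot be told apart in any comparison of the genotypes. Nothing in the labels states that replicates came from separate animals or cultures, so p-values measure the spread between these libraries, which may be technical. In bulk RNA, fewer cells of a type and less RNA per cell cannot be told apart.

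The 6 genes lie in a single cluster on mouse chromosome 19 and span 284 kb in the GENCODE M21 annotation of GRCm38, which lists 19 genes named Ms4a there. The submitters' processing notes name GRCm39, and the expression table holds no coordinates, so all positions here are those of GRCm38. Ms4a7 occupies chr19:11321039-11336146 on the minus strand and Ms4a6d chr19:11586604-11604849 on the minus strand. Between them, on the plus strand, lie Ms4a4a at chr19:11375523-11392790, Ms4a4c at chr19:11404770-11427246, Ms4a6c at chr19:11469366-11482192 and Ms4a6b at chr19:11516512-11531256. Only 2 other Ms4a genes, Ms4a4b and Ms4a4d, were interspersed among them.

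RefSeq start sites on GRCm38.p6 were available for 5 of the 6 genes, with 6 starts in all, and the 250 bases before each start were read. The upstream sequences of Ms4a6c and Ms4a6b are shown because they share an exact run of 48 bases, held by only these 2 of the 32851 RefSeq promoter windows of the mouse. The run lies 49 to 2 bases before the start in Ms4a6c and 118 to 71 bases before the start in Ms4a6b, and a local alignment of both windows matched 152 of 182 columns (83.5%). In the lines below, capitals mark the shared run. Bases inside an annotated exon are left out, so that the Ms4a6c line (chr19:11469118-11469365, plus strand) holds 47 bases of the run, and the Ms4a6b line (chr19:11518309-11518452, plus strand) holds the first 12, since the rest of the run lies in an exon of another Ms4a6b transcript.
Ms4a6c: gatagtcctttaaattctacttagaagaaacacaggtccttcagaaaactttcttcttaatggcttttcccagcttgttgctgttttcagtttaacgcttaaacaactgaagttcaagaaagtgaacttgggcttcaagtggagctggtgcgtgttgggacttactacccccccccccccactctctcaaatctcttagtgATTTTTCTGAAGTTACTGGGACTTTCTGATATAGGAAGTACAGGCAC
Ms4a6b: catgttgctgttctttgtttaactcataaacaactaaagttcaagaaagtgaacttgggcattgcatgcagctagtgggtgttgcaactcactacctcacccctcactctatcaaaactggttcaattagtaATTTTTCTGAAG

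The upstream sequences of Ms4a4a (chr19:11375238-11375487, plus strand) and Ms4a4c (chr19:11407411-11407660, plus strand) are shown because these genes had the largest genotype difference in controls and the largest response to LPS+ATP among the 6. The Ms4a4c window lies inside the gene as annotated by GENCODE, so it precedes an internal start. For Ms4a4a the bases after the RefSeq start were not found in a GENCODE transcript of the gene. Capitals mark a match to the kappaB motif (GGGA, any 2 bases, TTCC), the only match in either window.
Ms4a4a: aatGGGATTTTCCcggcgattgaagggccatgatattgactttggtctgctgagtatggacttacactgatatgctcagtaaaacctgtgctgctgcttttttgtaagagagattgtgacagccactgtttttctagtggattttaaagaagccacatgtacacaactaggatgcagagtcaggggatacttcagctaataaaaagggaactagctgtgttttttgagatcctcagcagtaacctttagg
Ms4a4c: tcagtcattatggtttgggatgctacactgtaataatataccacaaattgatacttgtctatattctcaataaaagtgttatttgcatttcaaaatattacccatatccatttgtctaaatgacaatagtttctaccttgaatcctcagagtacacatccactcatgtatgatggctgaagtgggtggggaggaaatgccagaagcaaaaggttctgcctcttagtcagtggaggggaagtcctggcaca

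Motifs of 5 factors active in macrophages were searched on both strands of the 6 windows: the interferon-stimulated response element core (GAAA, any 2 bases, GAAA), kappaB, AP-1 (TGANTCA), PU.1 (GAGGAAGT) and C/EBP (TTGCNNAA). The kappaB match of Ms4a4a begins 247 bases before the start, and 1.21% of all mouse promoter windows of that length hold such a match. The downstream start of Ms4a7 has an AP-1 match beginning 81 bases before it, a motif found in 6.75% of windows. The letters of the interferon-stimulated response element core (2.98% of windows), PU.1 (2.44%) and C/EBP (9.56%) were not in any of the 6 windows, and no matches overlapped. The Ms4a4c, Ms4a6b and Ms4a6c windows and the upstream Ms4a7 window held none of the 5 motifs. For Ms4a4c and Ms4a6b the bases before the outermost GENCODE start were not searched.

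The 3 Ms4a6 transcripts resemble each other. The longest coding transcripts of Ms4a6b and Ms4a6c aligned at 86.1% identity over 1234 bases, Ms4a6b and Ms4a6d at 82.5% over 933 bases, and Ms4a6c and Ms4a6d at 79.4% over 929 bases. As a measure of reads that counting could split, the share of 50-base stretches that also occur in a transcript of another gene was 0% for Ms4a4a and Ms4a7, 2.92% for Ms4a6d, 5.89% for Ms4a6b and 8.48% for Ms4a4c, mostly in Ms4a4b. It was 56.9% for Ms4a6c, where 993 of 1792 stretches were shared with BE692007, a gene on the opposite strand of the same DNA. BE692007 was listed at 1.10 to 12.6 FPKM over the 12 libraries, far under Ms4a6c. The counting is not stated to use strand, so reads from Ms4a6c and BE692007 cannot be told apart, and the Ms4a6b and Ms4a6c values are uncertain to the extent that their shared stretches were split.

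In wild-type macrophages 4 of the 6 genes rose with LPS+ATP, against 8.25% of all genes tested that rose. Ms4a4c rose the most, 75.9-fold in mean FPKM, and Ms4a6d (4.91-fold), Ms4a6c (3.63-fold) and Ms4a4a (3.63-fold) followed. Ms4a6b was 1.69-fold higher and Ms4a7 was lower, at 0.694 of its control level, and neither reached the fold limit. In Nlrp3-/- macrophages 5 of the 6 genes rose, against 6.64% of all genes tested, with Ms4a6b now among them. The median log2 fold change of the 6 genes was 1.85 in wild-type and 2.36 in Nlrp3-/- cells, beside -0.25 and -0.24 over all genes tested. Markers of other cells also moved with stimulation. Of the 7 neutrophil markers tested, 4 fell in wild-type, against 11.2% of all genes tested, and 6 fell in Nlrp3-/- cells, against 8.21%. Retnlg, among those 6, passed the filter on low values only through the Nlrp3-/- controls, where it was highest, so its fall there was favoured by the filter. The summed level of the 8 neutrophil markers listed went from 242 to 275 FPKM in wild-type controls to 91.6 to 108 FPKM with LPS+ATP, and from 1423 to 1469 FPKM to 417 to 445 FPKM in Nlrp3-/- cells. Of 5 monocyte markers 3 fell and 1 rose in each genotype, and the part of these changes in the MS4A response was not tested. The plot of levels shows each library, and the genes are taken in turn below.

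**Figure D1:**
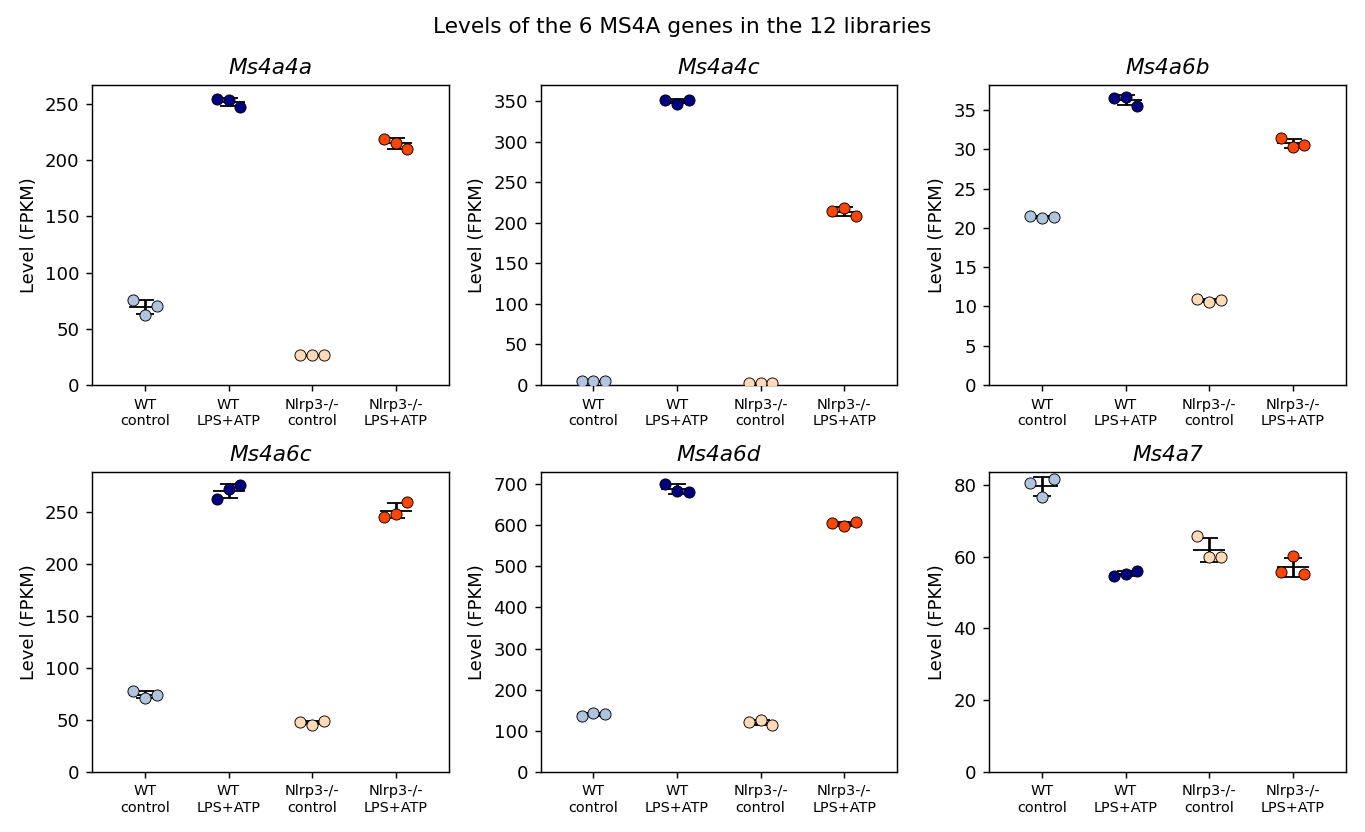
Level of each gene in FPKM (vertical axes, starting at 0) in the 3 libraries of each of the 4 groups, where points are libraries and bars are the mean and SD. Ms4a4c was near 0 in both control groups and between 208 and 352 FPKM with LPS+ATP, whereas Ms4a7 was highest in the wild-type controls.

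Ms4a4c, a gene of the mouse Ms4a4 subgroup, was the lowest of the 6 in both control groups and the second highest in stimulated wild-type cells. In the wild-type controls it stood at 4.35, 4.96 and 4.50 FPKM, and with LPS+ATP at 351, 347 and 352 FPKM. In the Nlrp3-/- controls it stood at 3.05, 2.02 and 2.22 FPKM, and with LPS+ATP at 214, 219 and 208 FPKM. None of the 4 groups overlapped, and each stimulated library lay far above every control library. The fitted log2 fold change was 5.97 (SE 0.09, limma adjusted p 1.97e-13) in wild-type and 5.98 (SE 0.09, adjusted p 2.46e-13) in Nlrp3-/- cells. These were the 24th and 17th largest increases among the 12622 genes. On the log2(FPKM + 1) scale the change of a gene this low in controls is understated, and the ratios of mean FPKM were 75.9 and 88.0.

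Ms4a6d, the described VSIG4 partner, was the most abundant of the 6 in every group. Its 3 libraries stood at 137, 144 and 140.0 FPKM in wild-type controls and at 701, 683 and 680.2 FPKM in wild-type LPS+ATP. In Nlrp3-/- cells the controls stood at 120.5, 126 and 113 FPKM and the stimulated libraries at 605, 597 and 607 FPKM. The groups did not overlap, and the stimulated level ranked 49th among all genes tested in wild-type and 53rd in Nlrp3-/- cells. The log2 fold change was 2.29 (SE 0.04, adjusted p 3.19e-13) in wild-type and 2.32 (SE 0.04, adjusted p 3.80e-13) in Nlrp3-/- cells.

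Ms4a6c, its close paralog, was the next most abundant after Ms4a4c in stimulated wild-type cells. It stood at 78.0, 71.4 and 73.8 FPKM in wild-type controls and at 262, 272 and 276 FPKM in wild-type LPS+ATP. The Nlrp3-/- controls stood at 47.5, 45.5 and 48.7 FPKM and the stimulated Nlrp3-/- libraries at 246, 249 and 260.0 FPKM. Control and stimulated libraries were far apart, while the nearest libraries of the 2 stimulated groups, at 262 and 260.0 FPKM, almost met. The log2 fold change was 1.85 (SE 0.04, adjusted p 4.26e-12) in wild-type and 2.39 (SE 0.04, adjusted p 6.75e-13) in Nlrp3-/- cells.

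Ms4a4a, the Dectin-1 partner, differed most between the genotypes before stimulation. The wild-type controls stood at 75.2, 62.4 and 70.0 FPKM and the Nlrp3-/- controls at 26.4, 26.8 and 26.3 FPKM. With LPS+ATP the wild-type libraries reached 254, 253 and 247 FPKM and the Nlrp3-/- libraries 219, 215 and 210.0 FPKM. All 4 groups were apart, with a wide gap in the controls and a narrow gap after stimulation. The log2 fold change was 1.85 (SE 0.05, adjusted p 4.84e-11) in wild-type and 2.97 (SE 0.05, adjusted p 1.23e-12) in Nlrp3-/- cells, or 3.63-fold and 8.11-fold in mean FPKM.

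Ms4a6b, the GITR partner, was the least abundant of the 6 once cells were stimulated. It stood at 21.5, 21.2 and 21.4 FPKM in wild-type controls, at 36.5, 36.7 and 35.5 FPKM in wild-type LPS+ATP, at 10.9, 10.6 and 10.8 FPKM in Nlrp3-/- controls and at 31.4, 30.3 and 30.6 FPKM in Nlrp3-/- LPS+ATP. Libraries of a group lay close together and no groups overlapped. The log2 fold change was 0.73 (SE 0.03, adjusted p 8.42e-10) in wild-type, under the fold limit, and 1.43 (SE 0.03, adjusted p 3.48e-12) in Nlrp3-/- cells. Scaling the libraries by the median ratio of their genes, which moved the median of all genes by 0.25 in this comparison, put the wild-type value at 1.05 and past the limit.

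Ms4a7, the tissue macrophage marker, did not join the increase. It stood at 80.5, 76.5 and 81.7 FPKM in wild-type controls and at 54.6, 55.2 and 56.0 FPKM in wild-type LPS+ATP. The Nlrp3-/- controls stood at 65.7, 60.0 and 59.8 FPKM and the stimulated Nlrp3-/- libraries at 55.7, 60.1 and 55.1 FPKM. The wild-type controls lay above every other library, and the other 3 groups overlapped in part. The log2 fold change was -0.52 (SE 0.05, adjusted p 1.02e-06) in wild-type, against -0.25 for the median gene, and -0.19 with median-ratio scaling. In Nlrp3-/- cells it was -0.12 (SE 0.05, adjusted p 0.0392), a value that turned to 0.17 (adjusted p 0.00556) with median-ratio scaling.

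**Figure D2:**
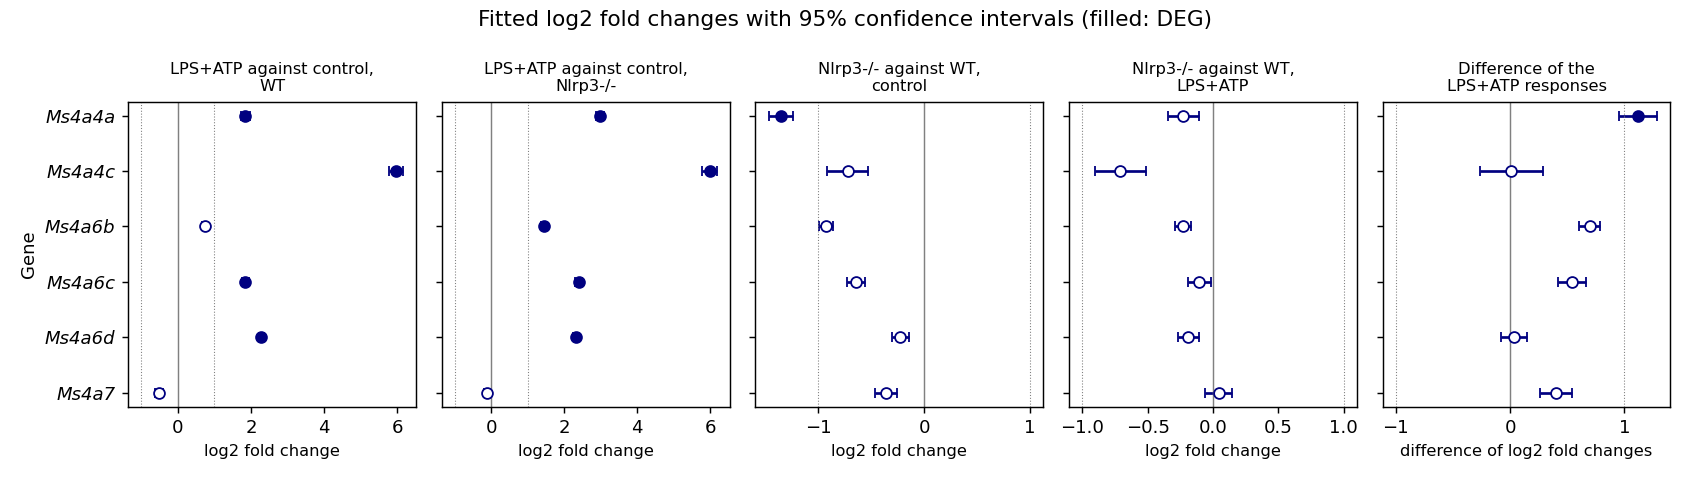
Fitted log2 fold change (horizontal axes, log2 units) of each gene in the 4 comparisons and the difference of both responses, with bars for the 95% confidence interval, filled points for DEGs and dotted lines at a log2 fold change of 1 and -1. All 6 points lie under 0 for Nlrp3-/- against wild-type controls, and Ms4a4a is the only filled point there and in the difference of responses.

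The make-up of the summed MS4A level changed with stimulation. The 6 genes summed to 389 ± 8.21 FPKM (SD, n = 3) in wild-type controls and 1651 ± 7.59 FPKM in wild-type LPS+ATP, and to 269 ± 6.73 and 1371 ± 0.375 FPKM in the Nlrp3-/- groups. Ms4a4c made up 1.18% of that sum in wild-type controls and 21.2% in wild-type LPS+ATP. The same gene made up 0.902% and 15.6% in the Nlrp3-/- groups. The share of Ms4a7 went from 20.4% to 3.35% in wild-type and from 23.0% to 4.16% in Nlrp3-/- cells. Ms4a6d kept the largest share in all 4 groups, between 36.0% and 44.6%. These are descriptions of shares, and no test was run on them.

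**Figure D3:**
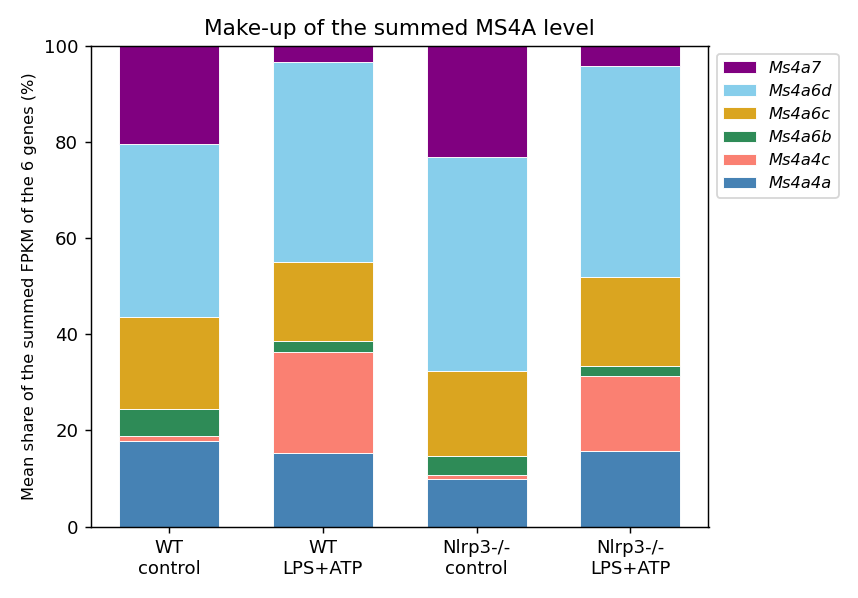
Mean share of each gene in the summed FPKM of the 6 genes (vertical axis, percent, from 0 to 100) in the 4 groups of 3 libraries. The Ms4a4c segment widens from 1.18% to 21.2% in wild-type and from 0.902% to 15.6% in Nlrp3-/- cells, while the Ms4a7 segment narrows.

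Before stimulation all 6 genes were lower in Nlrp3-/- macrophages than in wild-type. Only Ms4a4a met the DEG criteria, 2.61-fold lower in mean FPKM with a log2 difference of -1.35 (SE 0.05, adjusted p 3.57e-09), against 0.689% of all genes tested that fell. This was the 45th largest decrease of the 12622 genes. Ms4a6b was 1.98-fold lower in mean FPKM (log2 difference -0.93, adjusted p 5.44e-10), just short of the fold limit. Ms4a4c was 1.90-fold lower (-0.72, adjusted p 4.00e-05) and Ms4a6c 1.57-fold lower (-0.64, adjusted p 1.33e-07). Ms4a7 was 1.29-fold lower (-0.36, adjusted p 5.66e-05) and Ms4a6d 1.17-fold lower (-0.22, adjusted p 0.000331). By the adjusted p alone, all 6 were lower, against 14.5% of all genes tested, and their median log2 difference was -0.68 beside 0.09 over all genes. No library of the Nlrp3-/- controls reached the lowest wild-type control library in any of the 6 genes. The share of all genes tested for which this also holds was not counted. With median-ratio scaling Ms4a6b also passed the limit, at -1.06, and Ms4a6d was at -0.38. With a pseudocount of 5 the Ms4a4c value was -0.37.

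Markers of other cells moved with genotype in the same libraries. All 6 fibroblast markers tested were called higher in the Nlrp3-/- controls, against 6.02% of all genes tested, with a summed level of 1187 to 1204 FPKM against 162 to 167 FPKM in the wild-type controls. Of 8 neutrophil markers, 7 were tested and 6 were called higher, the 8 summing to 1423 to 1469 FPKM against 242 to 275 FPKM. None of these markers was listed at 0 in every library of a control group. The 8 macrophage markers summed to 18965 to 19247 FPKM against 19863 to 21106 FPKM, with none called and a median log2 difference of -0.28. Lyz2 made up most of both sums, with means of 17693 and 18464 FPKM. Of the 8, 5 were lower in the Nlrp3-/- controls by the adjusted p alone, against 14.5% of all genes tested, and 0 were higher. Cd68, for example, had a mean of 877 FPKM against 1450 FPKM in the wild-type controls. Of the monocyte markers 1 of 5, and of the mast cell and basophil markers tested 2 of 4, were called higher in the Nlrp3-/- controls. The dendritic cell markers were all under the filter, and of the B cell and the T and NK cell markers 1 each was tested. Cd4, the tested T and NK cell marker, was called higher in the Nlrp3-/- controls (log2 difference 1.14), while Cd3e and Cd3d were under the filter. Cd79b, the tested B cell marker, was higher by the adjusted p but not called (0.98). The 6 MS4A genes were lower in the libraries where fibroblast and neutrophil markers were higher, and the part of cell make-up in their difference was not tested.

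After LPS+ATP the genotypes lay closer together on the log2 scale for Ms4a4a, Ms4a6b, Ms4a6c and Ms4a7. Ms4a4c and Ms4a6d differed about as much as in the controls. None of the 6 genes met the DEG criteria, against 5.05% of all genes tested in either direction. By the adjusted p alone 4 of the 6 were lower in Nlrp3-/- cells, against 12.6% of all genes tested. Ms4a4c kept the widest gap, 1.64-fold lower in mean FPKM (log2 difference -0.71, SE 0.09, adjusted p 4.80e-05), with the highest Nlrp3-/- library at 219 FPKM and the lowest wild-type library at 347 FPKM. Ms4a6b was lower by a log2 difference of -0.23 (adjusted p 5.82e-05), Ms4a4a by -0.23 (adjusted p 0.00445) and Ms4a6d by -0.19 (adjusted p 0.00112). Ms4a6c missed the threshold at -0.10 (95% confidence interval -0.19 to -0.02, adjusted p 0.0507), although its libraries did not overlap. Ms4a7 differed by 0.04 (-0.06 to 0.14, adjusted p 0.479). These small differences depended on the scaling. With median-ratio scaling all 6 genes were lower by the adjusted p, as Ms4a6c went to -0.29 (adjusted p 7.00e-05) and Ms4a7 to -0.15 (adjusted p 0.0188), while Ms4a4a, Ms4a6b and Ms4a6d went to -0.42, -0.42 and -0.38. That scaling shifted the median gene by -0.15, and the 12.6% above is for FPKM without it. The share of all genes lower by the adjusted p under median-ratio scaling was not counted. In these groups the fibroblast markers summed to 925 to 940 FPKM in Nlrp3-/- against 190.3 to 193 FPKM in wild-type libraries, with 5 of 6 called higher, against 4.48% of all genes tested. The neutrophil markers summed to 417 to 445 against 91.6 to 108 FPKM, with 3 of 7 called.

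The response to LPS+ATP itself was compared between the genotypes by the interaction term of the fit, in which a positive value means a larger log2 fold change in Nlrp3-/- cells. Ms4a4a had the largest value of the 6, 1.12 (SE 0.08, adjusted p 1.82e-06), and met the DEG criteria, against 0.721% of all genes tested with a positive call. It ranked 73rd of the 12622 genes. Ms4a6b followed with 0.70 (SE 0.04, adjusted p 7.50e-07), Ms4a6c with 0.54 (SE 0.06, adjusted p 4.09e-05) and Ms4a7 with 0.40 (SE 0.06, adjusted p 0.000903). By the adjusted p alone these 4 of 6 were positive, against 14.7% of all genes tested. For Ms4a6d the difference was 0.04 (95% confidence interval -0.08 to 0.15, adjusted p 0.659), and for Ms4a4c it was 0.01 (-0.26 to 0.29, adjusted p 0.962). Both of these values changed sign under other scalings, and the interval of Ms4a4c is the widest of the 6. For Ms4a4a, Ms4a6b and Ms4a6c the larger response went with a lower starting level, as their control libraries differed more between the genotypes than their stimulated libraries.

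The order of the 4 groups was shared by 5 of the 6 genes. Ms4a4a, Ms4a4c, Ms4a6b, Ms4a6c and Ms4a6d were highest in wild-type LPS+ATP, followed by Nlrp3-/- LPS+ATP, wild-type control and Nlrp3-/- control. No neighbours in that order overlapped. The share of all genes tested with that order, or without overlap, was not counted. By the adjusted p alone, 76.4% and 74.3% of all genes tested differed with LPS+ATP in wild-type and Nlrp3-/- cells. Between the genotypes 47.8% differed in controls and 48.5% with LPS+ATP. Ms4a7 ran from wild-type control through Nlrp3-/- control and Nlrp3-/- LPS+ATP to wild-type LPS+ATP. Among its groups, the Nlrp3-/- controls overlapped with the stimulated Nlrp3-/- libraries, and these overlapped with stimulated wild-type. Libraries of a group agreed closely, with a coefficient of variation between 0.686% and 9.29% except for Ms4a4c in the Nlrp3-/- controls, where it was 22.5% at a level of 2.43 FPKM.

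For each gene the most similar profiles were sought among all genes tested, by the root-mean-square difference of log2(FPKM + 1), centred on the gene's mean, over the 12 libraries. The nearest to Ms4a4a were Trim30a (0.222) and Oas1a (0.233), and to Ms4a4c they were Isg15 (0.183) and Ifi206 (0.204). Ms4a6c lay nearest to Trim30d (0.0824) and Znfx1 (0.124). Ms4a6d lay nearest to a gene without a symbol in the table, which GENCODE names Pnp (0.0534), and to Parp12 (0.0754). Ms4a6b lay nearest to Pik3ap1 (0.138) and Trim25 (0.167). Ms4a7, with its flat profile, lay nearest to Os9 (0.0713) and Cers2 (0.0729). Isg15, Oas1a, Parp12 and Trim25 are known as genes that interferon induces. Among themselves, Ms4a6c was the 11th nearest gene to Ms4a4a and Ms4a6d the 16th nearest to Ms4a6c. The nearest of the 6 ranked 44th for Ms4a6d, 225th for Ms4a4c and 1247th for Ms4a6b. No other of the 6 was nearer to Ms4a7 than rank 10957.

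A list of 10 interferon-stimulated genes and a list of 8 LPS-induced genes gave a reference for these profiles. All 10 interferon-stimulated genes rose in both genotypes, against 8.25% and 6.64% of all genes tested. Their median log2 fold changes were 5.32 and 5.91, to which the Ms4a4c values of 5.97 and 5.98 were nearest among the 6. In the controls 3 of the 10 fell in Nlrp3-/- cells, against 0.689% of all genes tested, and none rose. Judged by the adjusted p alone, 9 of the 10 were lower, against 14.5%. Their median log2 difference was -0.89, beside -0.68 for the MS4A genes. The median interaction of the 10 was 0.43, with 1 positive call, against 0.721% of all genes tested. Without the fold limit 7 of the 10 were positive by the adjusted p, against 14.7%. All 8 LPS-induced genes also rose in both genotypes, but they were listed because LPS induces them. Il6, Nos2 and Il12b passed the filter on low values only through the stimulated groups, so the counts and medians of this list rest partly on such genes. In the Nlrp3-/- controls 7 of the 8 were higher by the adjusted p, against 33.3% of all genes tested, and 1 was lower. The DEG criteria were met by 2 of the 7, against 6.02% of all genes tested. Their median interaction was -1.39 with 5 negative calls, against 1.43% of all genes tested. Isg15, which stood at 14.2 FPKM in wild-type controls and 934 FPKM in wild-type LPS+ATP, went to 9.70 and 740 FPKM in the Nlrp3-/- groups.

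Along the cluster, the Ms4a genes that passed the filter all lay from Ms4a14 to Ms4a3, at the end away from Ms4a10. Of 19 other MS4A-family genes listed, which include the related Tmem176a and Tmem176b, 15 had a row in the table and 5 passed the filter. Ms4a5, Ms4a10, Ms4a12, Ms4a13 and Ms4a18 were listed at 0 in all 12 libraries. Ms4a1, the B cell gene for CD20, reached at most 0.403 FPKM and Ms4a2 at most 0.117 FPKM. Ms4a8a, Ms4a15 and Ms4a4b were also under the filter.

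Ms4a4d, which lies between Ms4a6b and Ms4a6d, rose with LPS+ATP in both genotypes. Its mean was 1.15 FPKM in wild-type controls, 8.25 FPKM in wild-type LPS+ATP, 3.01 FPKM in Nlrp3-/- controls and 22.2 FPKM in Nlrp3-/- LPS+ATP. The log2 fold change was 2.11 (SE 0.09, adjusted p 1.19e-09) in wild-type and 2.53 (SE 0.09, adjusted p 3.17e-10) in Nlrp3-/- cells. After LPS+ATP it was higher in Nlrp3-/- cells by 1.33 (adjusted p 2.70e-07), where none of the 6 genes was higher by the adjusted p.

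Ms4a3, a gene of granulocyte and monocyte progenitors at the end of the cluster, averaged 11.1 FPKM in Nlrp3-/- controls, 0.764 FPKM in wild-type controls, and 0.0950 and 0.396 FPKM in wild-type and Nlrp3-/- LPS+ATP. It passed the filter on low values only through the Nlrp3-/- controls, so its differences from that group are given as levels, without a test. Tmem176a and Tmem176b were higher in Nlrp3-/- cells in both states, by 1.41 and 1.19 on the log2 scale in controls, and Tmem176a by 1.58 with LPS+ATP. The Tmem176b call in controls was lost with a pseudocount of 5, at 0.99. Ms4a14, beside Ms4a7, stood at 20.4 and 17.6 FPKM in the wild-type groups and at 14.8 and 15.1 FPKM in the Nlrp3-/- groups and met the DEG criteria in no comparison. Of these 5 genes, Ms4a3 set aside, Tmem176a and Tmem176b were called higher in Nlrp3-/- controls, where 6.02% of all genes tested were, and Ms4a4d, Tmem176a and Tmem176b with LPS+ATP, where 4.48% were. None was called lower.

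**Figure D4:**
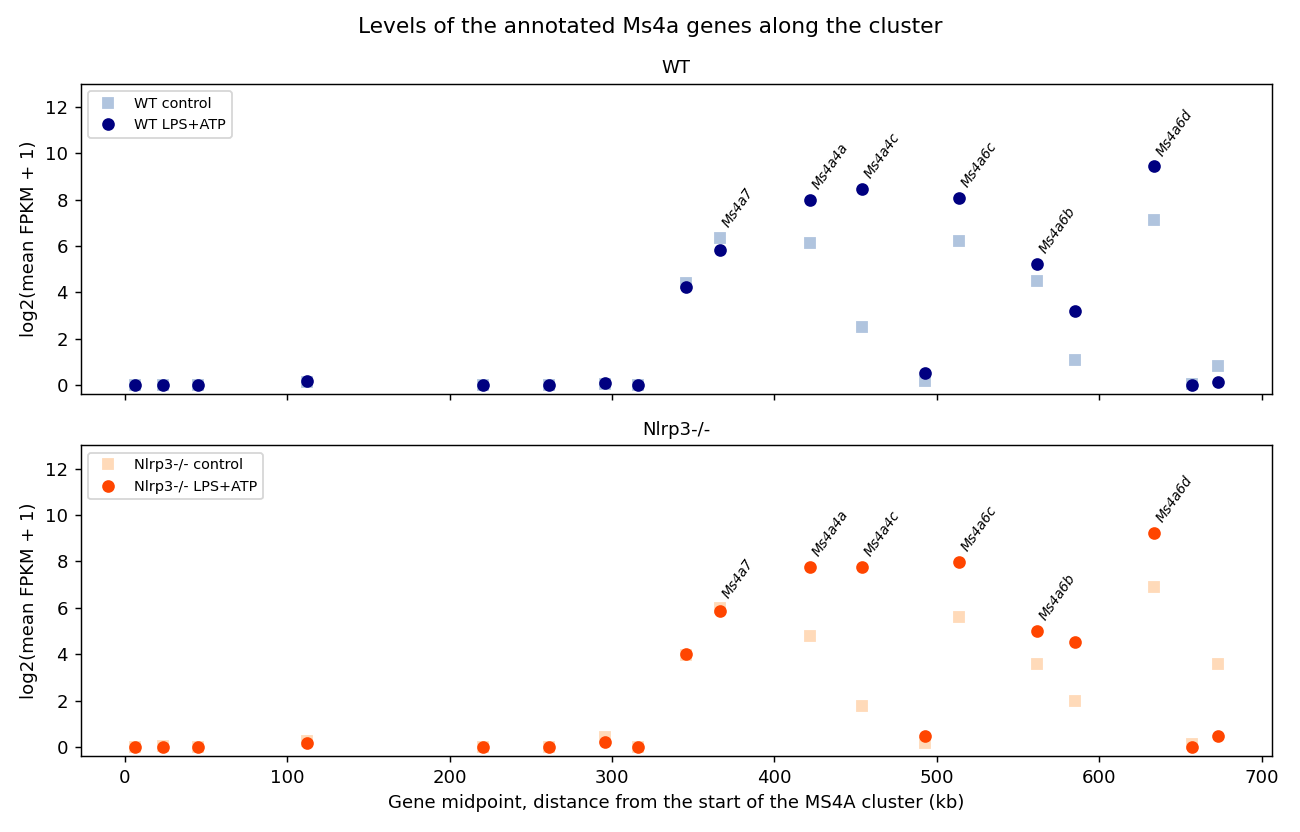
Level of the 19 annotated Ms4a genes as log2(mean FPKM + 1) (vertical axes) against the distance of the gene midpoint from the start of the cluster in kb (horizontal axis), for wild-type (upper) and Nlrp3-/- libraries (lower), with squares for controls and circles for LPS+ATP. The genes on the left lie near 0 and the 6 labelled genes lie to the right, with Ms4a4c showing the widest gap between squares and circles.

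Clec7a, Vsig4 and Tnfrsf18, the genes of the described partners Dectin-1, VSIG4 and GITR, were followed in the same libraries. Also listed were Syk and Card9 of the Dectin-1 pathway, and Trem2 with its adaptor gene Tyrobp. Of 7 genes listed, 6 passed the filter, and Tnfrsf18, which encodes GITR, was under it. With LPS+ATP 2 of the 6, Trem2 and Tyrobp, fell in wild-type, against 11.2% of all genes tested. In Nlrp3-/- cells 3 fell, the same genes and Clec7a, against 8.21%. Among the described partners, neither Clec7a nor Vsig4 (0.16, limma adjusted p 0.247) was called in wild-type. None met the criteria for a rise, although Syk was higher by 0.81 (adjusted p 1.06e-09) and 0.86 (adjusted p 7.89e-10) and passed the fold limit with median-ratio scaling, at 1.13 and 1.15. Trem2, a lipid receptor of macrophages, fell from 125 to 18.2 FPKM in wild-type (log2 fold change -2.71, adjusted p 1.94e-12) and from 87.5 to 17.7 FPKM in Nlrp3-/- cells (-2.24, adjusted p 1.22e-11). Tyrobp, its signalling adaptor, fell by 1.54 on the log2 scale (adjusted p 8.03e-10) in wild-type and by 1.32 (adjusted p 4.19e-09) in Nlrp3-/- cells. Clec7a, which encodes Dectin-1, fell by 1.51 (adjusted p 2.16e-10) in Nlrp3-/- cells, and its value in wild-type was -0.72 (adjusted p 1.14e-07).

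In the controls Clec7a was higher in Nlrp3-/- cells by 0.64 (adjusted p 8.43e-07), where its partner Ms4a4a fell. Its interaction was -0.79 (adjusted p 1.26e-05), of opposite sign to the 1.12 of Ms4a4a. Vsig4 was higher in the Nlrp3-/- controls by 1.04 (adjusted p 3.13e-05), a call lost under 5 alternatives. It was 0.67 with a pseudocount of 5 and 0.98 without the third library of either control group, and median-ratio and upper-quartile scaling also took it under the limit. Syk and Card9, which signal downstream of Dectin-1, met the DEG criteria in no comparison, and the wild-type log2 fold change of Card9 was -0.70.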

How the data were processed

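Total RNA of 12 BMDM libraries was sequenced on libraries from an Illumina TruSeq kit. The authors deposited FPKM values per gene in a single table. The submitters' processing notes name GRCm39 and DESeq2 1.24.0, and aligner, annotation and strand setting are not given in the sources used here. Genes reaching 1 FPKM in 3 or more libraries were kept, and log2(FPKM + 1) was fitted with limma 3.58.1 (R 4.3.3) in 1 model of the 4 groups, with a mean-variance trend and p-values adjusted over all 12622 genes. The fit was tested on simulated data. FPKM is not a count, so no count test was run, and read depth is known only as a ratio between libraries. Named genes were the 6 members, the tested genes of the family and partner lists, the checks, and the 2 nearest profiles of each member. Members and lists were chosen with earlier results of these data known. Gene models came from GENCODE M21 and promoters from RefSeq, both on GRCm38, and transcripts were aligned with blastn 2.17.0+. Alternatives were 3 other scalings, other pseudocounts, filters and variance priors, no fold limit, a replicate block, the compared groups alone, and each library left out.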

Additional observations from a re-analysis of the deposited data

Results flagged for a closer look

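The response to LPS+ATP differed between the genotypes, by the interaction term of the limma fit across 12622 genes, for 4 of the 6 MS4A genes. The difference of log2 fold changes (Nlrp3-/- minus wild-type) was 1.12 for Ms4a4a (adjusted p 1.82e-06), 0.70 for Ms4a6b (adjusted p 7.50e-07), 0.54 for Ms4a6c (adjusted p 4.09e-05) and 0.40 for Ms4a7 (adjusted p 0.000903). For Ms4a4a the mean FPKM of Nlrp3-/- was 0.383 of wild-type in controls and 0.854 with LPS+ATP. For Ms4a7 the 2 log2 fold changes behind the term were -0.52 in wild-type and -0.12 in Nlrp3-/- cells, neither past the fold limit. Fibroblast and neutrophil marker sums also differed between the genotypes in these libraries, and their part in the interaction was not tested. Single libraries within groups of 3 were not tested for standing apart, and each was left out in turn instead.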

How the results depend on the processing

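The increases of Ms4a4a, Ms4a4c, Ms4a6c and Ms4a6d with LPS+ATP in both genotypes and of Ms4a6b in Nlrp3-/- cells kept their direction and DEG call under every alternative run, as did the Ms4a4a calls in the genotype comparison of controls and in the interaction. Leaving out any library left 4, 5, 1, 0 and 1 of the 6 genes called in the wild-type stimulation, Nlrp3-/- stimulation, control genotype, LPS+ATP genotype and interaction comparisons. Without a fold limit, 6, 4 and 4 genes were called in the control genotype, LPS+ATP genotype and interaction comparisons. Median-ratio scaling called 2 genes in the control genotype comparison, since Ms4a6b reached -1.06.

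Signs turned for values near 0. Ms4a7 in the Nlrp3-/- stimulation became 0.17 with median-ratio and 0.0089 with upper-quartile scaling, and in the LPS+ATP genotype comparison -0.15 and -0.076. The Ms4a4c interaction became -0.32 with a pseudocount of 5 (adjusted p 0.00378), -0.084 with median-ratio and -0.063 with upper-quartile scaling, and spanned -0.075 to 0.14 with a library left out. The Ms4a6d interaction became -0.0029 and -0.013 with these scalings and spanned -0.0044 to 0.071 with a library left out. Outside the 6 genes, the Tmem176a interaction became -0.025 (pseudocount 5), Ms4a14 in the wild-type stimulation 0.11 (median-ratio), and Trem2 in the LPS+ATP genotype comparison spanned -0.093 to 0.019 with a library left out. Over the values of the 6 genes under all alternatives, 653 kept direction and call, 17 gained a call, 14 changed sign and 0 lost a call. Apart from Ms4a6b with median-ratio scaling, the gained calls came from dropping the fold limit, which can only add calls. The cause of the changes in sign was not tested.

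Over all genes, 2452, 1874, 847, 637 and 271 were called in the 5 comparisons in the order above. The counts were 3702, 2847, 1428, 1406 and 634 with a pseudocount of 0.1, 1160, 863, 253, 181 and 73 with 5, and 9641, 9383, 6035, 6124 and 3494 without a fold limit. With TPM they were 2933, 1597, 1327 and 605 in the last 4, and 515 were called between control genotypes at a minimum FPKM of 5. Median-ratio scaling shifted the median gene by 0.25, 0.23, -0.12, -0.15 and -0.02, and took the share of higher calls from 42.5% to 61.7% in wild-type and from 44.7% to 64.5% in Nlrp3-/- stimulation. Upper-quartile scaling gave 52.9% in wild-type.

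Same-numbered libraries did not deviate together (correlations across genes of -0.0565 to 0.0528), so the numbers were not taken as pairs. A replicate block left the counts of the 6 genes at 4, 5, 1, 0 and 1 and called 2453, 1876, 847, 636 and 268 genes in all. Depth was known only as a ratio between libraries, so no counting error could be given for low values such as Ms4a4c in controls.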
